A study of Mus musculus with 15 samples.

Results

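The genes that write, copy and remove DNA methylation were described in blood stem cells and in a myeloid progenitor of old and young mice. They were the DNA methyltransferase genes Dnmt1, Dnmt3a and Dnmt3b, the maintenance partner gene Uhrf1, and the oxidase genes Tet1, Tet2 and Tet3. All 7 were found among the 19296 genes measured by at least 1 probe set that the platform annotation assigns to a single gene symbol. Where a gene had several such probe sets, the one with the highest mean over all arrays was used. That choice of probe set used overall brightness and no difference between groups.

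RNA was hybridised to 15 Affymetrix mouse arrays in 4 groups of wild-type C57Bl/6 mice. The groups were haematopoietic stem cells (HSC) of old mice on 3 arrays, HSC of young mice on 5, granulocyte/macrophage progenitors (GMP) of old mice on 3 and GMP of young mice on 4. Old mice were 22 to 30 months of age, young mice were 6 to 12 weeks of age, and the label gives the sex of all as male. HSC were sorted from bone marrow as Lin-/cKit+/Sca1+/Flk2-/CD48-/CD150+ cells and GMP as Lin-/cKit+/Sca1-/FcyR+/CD34+ cells. The cells were sorted a second time for purity, and the small amounts of RNA were amplified before biotin labelling. The labels do not say how many mice gave the cells of an array, so a p-value reflects the spread from array to array and not necessarily that between animals. In such sorted bulk samples, fewer cells of one kind and less RNA per cell cannot be told apart.

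DNA methylation in mammals is placed on cytosines that are followed by guanine (CpG). DNMT3A and DNMT3B set new marks. DNMT1 copies them to the new strand after replication, guided by UHRF1, which binds the half-methylated site. TET enzymes oxidise the methyl group with the help of iron, oxygen and alpha-ketoglutarate, and the oxidised base is then diluted by replication or cut out by base excision repair. In blood, DNMT3A and TET2 are known for the stem cell clones that grow when either gene is mutated, and DNMT1 is required for stem cell self-renewal.

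The promoters of Uhrf1 and Dnmt1 are shown because they were the genes whose transcription start windows held a sequence of the E2F kind, the binding motif of the factors that drive S-phase genes. The windows came from RefSeq on build GRCm38.p6 and ran from 250 bases before to 50 bases after an annotated start. They are written 5′ to 3′ along the gene, and capitals mark the E2F letters searched, TTCCCGC or TTGGCGC on either strand. The Uhrf1 window lies on the plus strand at chr17:56303087-56303386 and the Dnmt1 window on the minus strand at chr9:20952574-20952873.
Uhrf1: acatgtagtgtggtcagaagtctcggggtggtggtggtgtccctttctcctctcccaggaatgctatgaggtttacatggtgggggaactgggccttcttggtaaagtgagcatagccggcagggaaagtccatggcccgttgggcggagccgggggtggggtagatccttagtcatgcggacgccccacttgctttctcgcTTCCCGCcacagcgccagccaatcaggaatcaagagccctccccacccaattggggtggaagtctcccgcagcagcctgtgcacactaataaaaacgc
Dnmt1: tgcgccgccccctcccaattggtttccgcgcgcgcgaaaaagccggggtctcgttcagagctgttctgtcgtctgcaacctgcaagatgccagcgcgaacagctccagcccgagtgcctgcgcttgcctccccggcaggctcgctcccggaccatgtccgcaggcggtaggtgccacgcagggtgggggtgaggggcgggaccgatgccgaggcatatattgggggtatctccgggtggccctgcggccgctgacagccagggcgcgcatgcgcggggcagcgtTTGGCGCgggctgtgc
The Uhrf1 match begins at base -48, counted from the start, and reads TTCCCGC, and the Dnmt1 match begins at base 35 of the transcribed part and reads TTGGCGC. All 7 genes matched entries in the promoter table, with 12 windows in all, and 2 of the 12 held these letters. Among all 32851 windows the share was 6.81%. A match is a description of the letters and no evidence of binding. The windows and the motif were chosen after expression values had been seen.

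The windows of Tet1 and Tet2 are shown because these genes had opposite differences between HSC and GMP, and because their starts differ in CpG content. Here capitals mark each CpG, and both windows lie on the minus strand, Tet1 at chr10:62887275-62887574 and Tet2 at chr3:133544341-133544640.
Tet1: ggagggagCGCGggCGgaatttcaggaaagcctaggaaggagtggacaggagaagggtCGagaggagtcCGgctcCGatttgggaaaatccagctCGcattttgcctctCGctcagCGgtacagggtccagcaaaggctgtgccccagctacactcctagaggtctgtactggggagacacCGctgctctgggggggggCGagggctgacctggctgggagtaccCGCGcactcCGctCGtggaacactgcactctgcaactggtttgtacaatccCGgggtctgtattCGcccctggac
Tet2: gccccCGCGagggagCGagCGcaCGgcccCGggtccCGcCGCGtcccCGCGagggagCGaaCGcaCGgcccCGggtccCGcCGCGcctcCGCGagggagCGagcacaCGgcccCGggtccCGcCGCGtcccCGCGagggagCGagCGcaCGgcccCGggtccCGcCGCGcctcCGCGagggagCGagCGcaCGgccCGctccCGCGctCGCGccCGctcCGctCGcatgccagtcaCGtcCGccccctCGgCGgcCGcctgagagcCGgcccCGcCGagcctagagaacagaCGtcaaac
The Tet1 window held 17 CpG and the Tet2 window held 57. The median over all windows was 7, and 99.8% of all windows had fewer CpG than that of Tet2. Among the other windows, Dnmt3a had 46, 47 and 18 CpG at its 3 starts, Dnmt3b 30 and Tet3 22. The remaining Uhrf1 window had 33. Dnmt1 had 33 in the window printed above, 12 in the second and 2 in the third. The shorter motif CCAAT, read on both strands, occurred in 5 of the 12 windows against 37.4% of all windows, and GGGCGG in 10 of the 12 against 35.7%.

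Expression is given as log2 values throughout, and a gene was called changed where limma's moderated test, adjusted by the Benjamini-Hochberg method over all 19296 genes, gave a p under 0.05. Levels are compared between samples for one probe set and never between genes, since probe sets differ in brightness for reasons other than RNA amount. The sorted cells carried their own markers. All 9 measured genes of an HSC list were higher in HSC than in GMP at both ages, and of the 10 genes of a GMP list all 10 were lower in young HSC than in young GMP and 9 were lower in old HSC than in old GMP. The highest group mean of each of the 7 genes lay above the median of all values, 7.31. Because the number of arrays limits precision, each difference is given with its standard error or 95% interval.

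Several arrays stood apart in sex-linked genes, in Cd48 or in the spread of their values. Xist, which is transcribed from the inactive X chromosome of female cells, was at 5.46 to 5.84 on the 6 old arrays, while 7 of the 9 young arrays were above that range, at 8.92 to 11.51, against the male label. The Y-linked gene Eif2s3y was 4.02 and 4.32 on replicate 4 of young HSC and of young GMP, 7.75 and 7.77 on replicate 2 of the same groups, and 8.82 to 9.57 on the other 11 arrays. Young HSC replicate 4 had Cd48 at 7.56, against 5.95 to 6.47 on the other young HSC arrays, although cells with CD48 protein were gated out. The interquartile range of an array ran from 1.87 to 2.23 in old HSC, 2.11 to 2.62 in young HSC, 2.16 to 2.37 in old GMP and 2.03 to 2.50 in young GMP. Results are therefore also given without replicate 4 of both young groups, and without the 7 young arrays with high Xist. The last setting leaves 1 young HSC array and 1 young GMP array, which were assumed to vary like the other groups. Since high Xist was seen on 7 of the 9 young arrays and on no old array, age and sex could not be fully told apart. None of the 7 genes lies on a sex chromosome, which does not show that their levels are free of a difference by sex. The part of sex in the age differences was not tested.

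**Figure D1:**
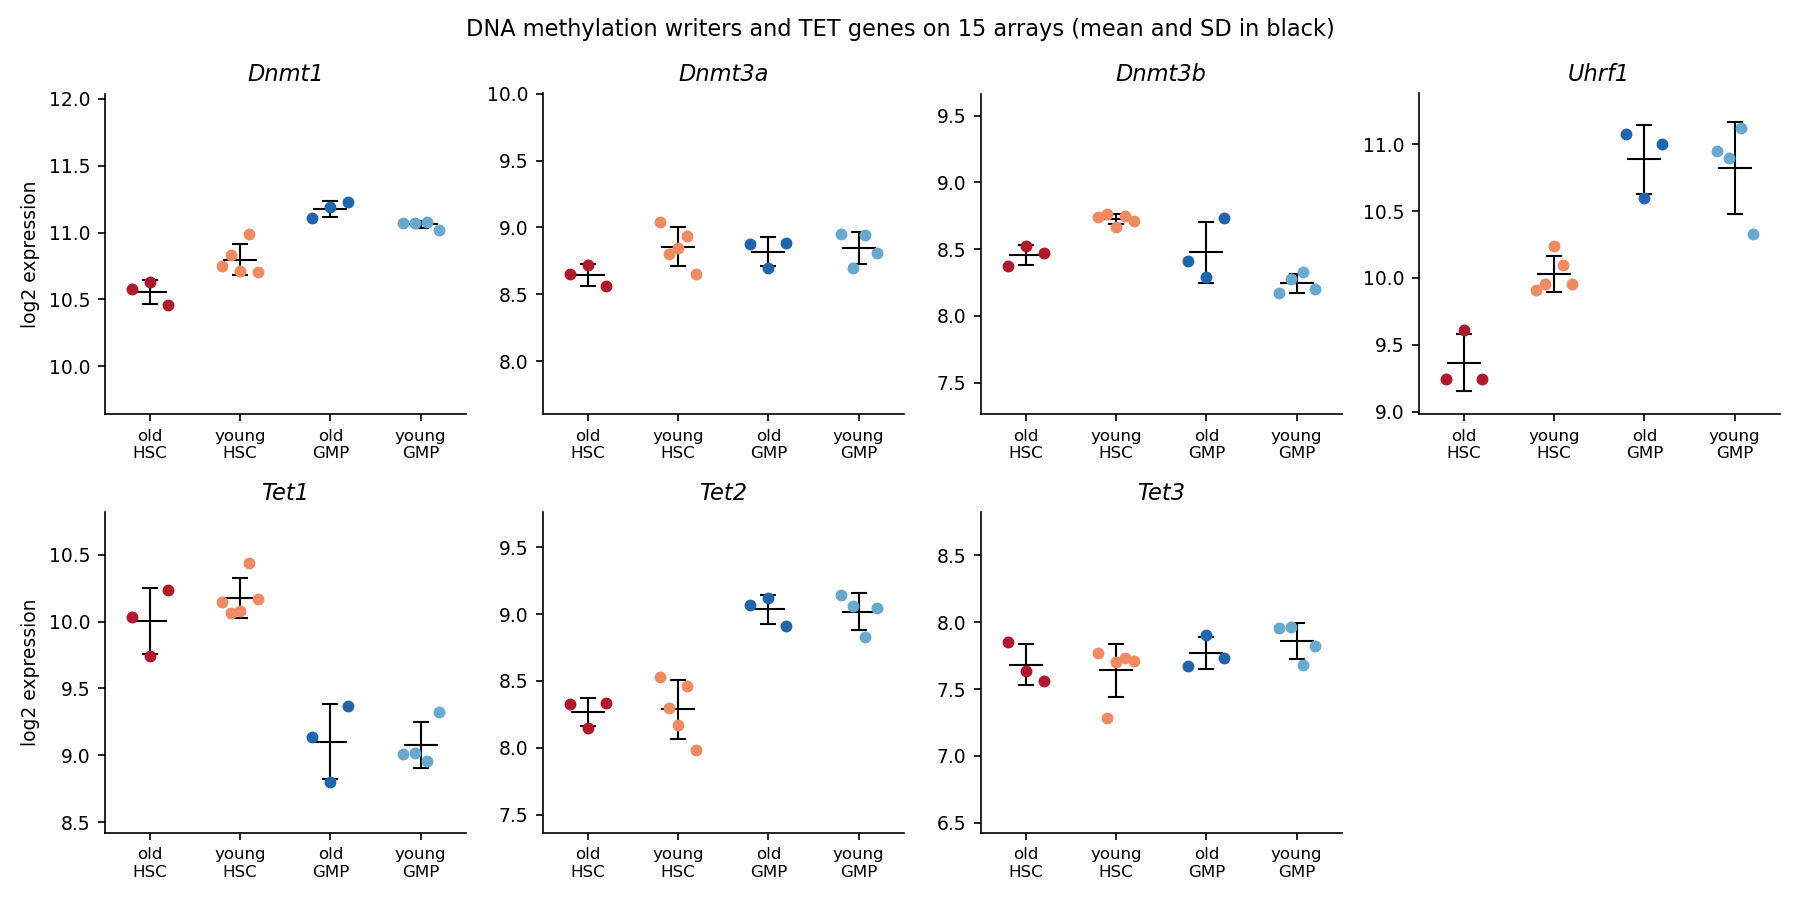
Log2 expression (vertical axis) of each gene on the 15 arrays, 1 point per array, with the mean and SD of each group in black. Each panel is centred on the values of its own gene, and all panels span the same log2 width. Uhrf1 is lowest on the 3 old HSC arrays, at 9.24 to 9.61. Tet1 is higher and Tet2 lower on every HSC array than on any GMP array, and Dnmt3a and Tet3 overlap between all groups.

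Uhrf1, the gene of the factor that guides DNMT1 to newly replicated DNA, was lower in old HSC than in every other group. It was 9.24, 9.61 and 9.24 on the old HSC arrays and 9.91, 9.95, 10.24, 10.10 and 9.95 on the young HSC arrays. The GMP values were 11.08, 10.59 and 10.999 on the old arrays and 10.95, 10.90, 11.12 and 10.33 on the young arrays. Every old HSC array lay below every young HSC array, every HSC array lay below every GMP array, and old and young GMP overlapped. Means with SD were 9.36 ± 0.21 for the 3 arrays of old HSC, 10.03 ± 0.14 for the 5 of young HSC, 10.89 ± 0.26 for the 3 of old GMP and 10.82 ± 0.34 for the 4 of young GMP. The same group sizes apply to all means below.

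Uhrf1 fell in old HSC relative to young HSC by 0.67 ± 0.16 on the log2 scale (limma SE, adjusted p = 0.0163), which is 1.59-fold, with a 95% interval from -1.004 to -0.33. It was the 1 of the 7 genes called in that comparison, where 11.5% of all genes were called and 9.22% were called lower. The call was kept without replicate 4 of both young groups, at -0.65 (limma adjusted p = 0.00180). It was not kept without the 7 young arrays with high Xist, at -0.55 (limma adjusted p = 0.162), without old HSC replicate 1, at -0.60 (0.0841), under quantile normalization, at -0.38 (0.172), or with the interquartile range as a covariate, at -0.56 (0.318). In GMP the difference between old and young was 0.07 ± 0.17 (limma adjusted p = 1.00). The test of whether age differences in HSC and GMP differed gave -0.73 ± 0.23 for Uhrf1, with a limma adjusted p of 0.300 and an unadjusted p of 0.00546.

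Between the cell types Uhrf1 was lower in HSC than in GMP at both ages. The difference was -0.79 ± 0.15 in young mice (limma adjusted p = 3.91e-04, 1.73-fold) and -1.52 ± 0.18 in old mice (limma adjusted p = 3.20e-06, 2.88-fold). Both calls held in every alternative setting run. The comparisons of age and of cell type share the HSC arrays, so the 2 cell type values and the age value are not independent of each other.

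Dnmt1, the enzyme that copies methylation, was 10.58, 10.63 and 10.46 on the old HSC arrays and 10.75, 10.83, 10.71, 10.99 and 10.71 on the young HSC arrays. In GMP it was 11.11, 11.19 and 11.23 on the old arrays and 11.07, 11.07, 11.08 and 11.02 on the young arrays. No 2 groups overlapped. Old HSC was lowest and old GMP highest. Means with SD were 10.55 ± 0.09 for old and 10.80 ± 0.12 for young HSC, and 11.18 ± 0.06 for old and 11.06 ± 0.03 for young GMP.

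Although old and young HSC arrays did not overlap for Dnmt1, the age difference of -0.24 ± 0.10 missed the threshold (limma adjusted p = 0.107), and it was 0.04 under quantile normalization. Arrays of old and young HSC failed to overlap for 12.8% of all genes and for 3 of these 7, Dnmt1, Dnmt3b and Uhrf1. In GMP the age difference was 0.11 ± 0.10 (limma adjusted p = 1.00). The cell type difference was called in old mice, at -0.62 ± 0.11 (limma adjusted p = 3.26e-04, 1.54-fold), and was -0.29 under quantile normalization (0.158). In young mice it was -0.26 ± 0.09 (limma adjusted p = 0.0420), close to the threshold. The labels do not say whether replicate numbers pair the young HSC with the young GMP arrays. With a block that took them to do so, the young value was -0.24 (limma adjusted p = 0.0777). The young Dnmt1 call was lost in 13 of the 20 alternative settings run, at differences from -0.33 to -0.19 over all 20.

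Of the de novo methyltransferases, Dnmt3b was 8.38, 8.53 and 8.47 on the old HSC arrays and 8.74, 8.76, 8.66, 8.75 and 8.71 on the young HSC arrays. GMP arrays gave 8.41, 8.29 and 8.73 on the old arrays and 8.17, 8.28, 8.33 and 8.20 on the young arrays. Young HSC were above old HSC and above young GMP without overlap, while old GMP overlapped with every other group. Group means were 8.46 ± 0.08 in old HSC, 8.72 ± 0.04 in young HSC, 8.48 ± 0.23 in old GMP and 8.24 ± 0.07 in young GMP (SD). In young mice Dnmt3b was higher in HSC than in GMP by 0.48 ± 0.10 (limma adjusted p = 9.57e-04, 1.40-fold), a call that was lost only without the 7 young arrays with high Xist, at 0.57 (0.206).

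In old mice the Dnmt3b difference between HSC and GMP was -0.02 ± 0.12, with a 95% interval from -0.27 to 0.23. The age difference was -0.27 ± 0.11 in HSC (limma adjusted p = 0.104) and 0.23 ± 0.11 in GMP (limma adjusted p = 1.00). In HSC it was -0.02 under quantile normalization (limma adjusted p = 0.93). The test of the difference between the HSC and GMP age differences gave -0.50 ± 0.16, with an unadjusted p of 0.00457 and a limma adjusted p of 0.285. That value ran from -0.59 to -0.29 over 24 alternatives. In the fit with array weights the same test reached a limma adjusted p of 0.0138 for Dnmt3b and 0.0105 for Uhrf1. These calls therefore depended on how arrays were weighted. The weighted fit called 2407 of all 19296 genes in this test, against 18 in the main fit.

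Dnmt3a, the methyltransferase most often mutated in blood stem cell clones, was 8.65, 8.72 and 8.56 on the old HSC arrays and 9.04, 8.80, 8.85, 8.93 and 8.65 on the young HSC arrays. The GMP values were 8.87, 8.69 and 8.89 on the old arrays and 8.95, 8.70, 8.94 and 8.81 on the young arrays. Neighbouring groups overlapped throughout its order of means. Its age difference in HSC was -0.21 ± 0.11 (limma adjusted p = 0.198), with a 95% interval from -0.44 to 0.02, and 0.06 under quantile normalization. In young mice its HSC minus GMP difference was 0.01 ± 0.10, with an interval from -0.21 to 0.22, and in old mice it was -0.17 ± 0.12, with an interval from -0.43 to 0.09.

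**Figure D2:**
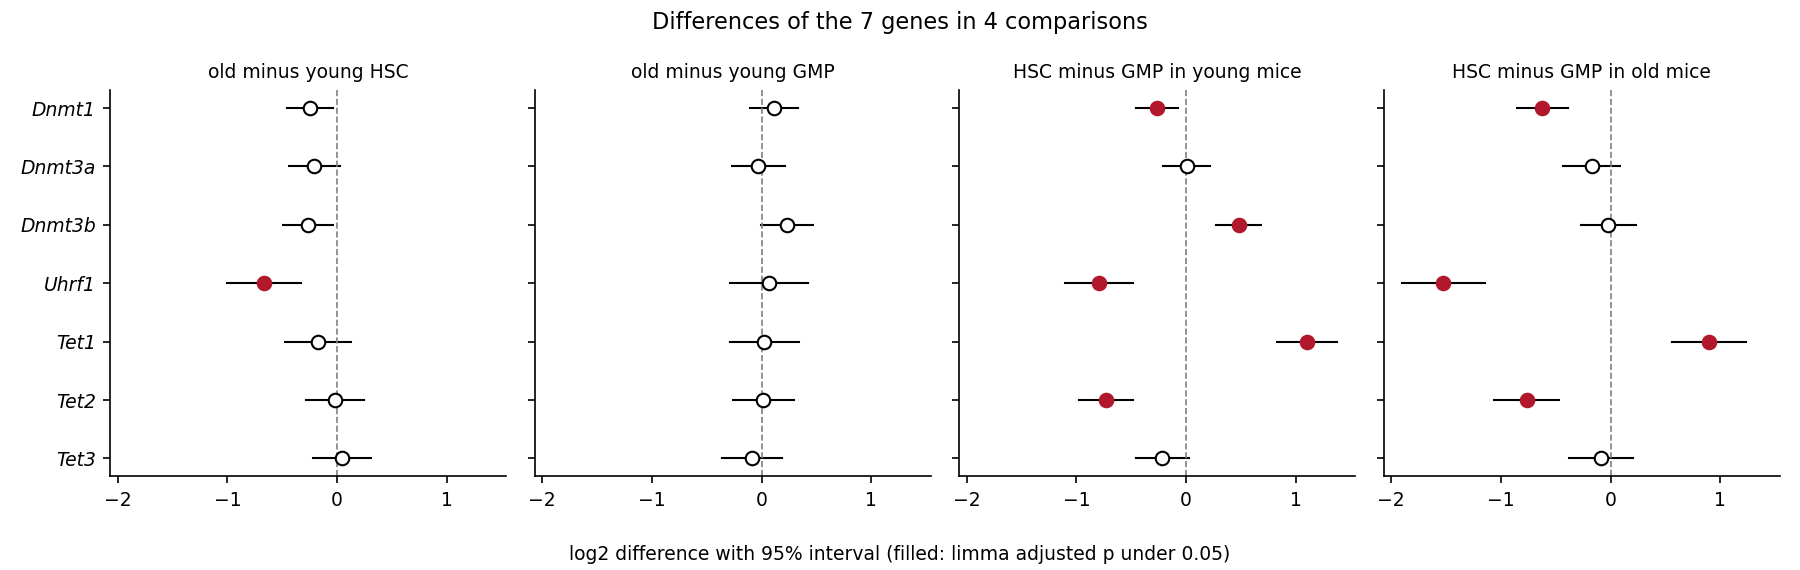
Log2 differences (horizontal axis) of the 7 genes with 95% intervals for old minus young HSC, old minus young GMP, and HSC minus GMP in young and in old mice. Filled points passed the limma test: 1 gene between old and young HSC, 0 between old and young GMP, 5 between young HSC and young GMP and 4 between old HSC and old GMP. The age differences in HSC lie below 0 for 6 of 7 genes, which under quantile normalization holds for 2 of 7.

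Among the erasers, Tet1 was higher in HSC than in GMP. It was 10.03, 9.74 and 10.23 on the old HSC arrays and 10.15, 10.07, 10.08, 10.44 and 10.17 on the young HSC arrays. In GMP it was 9.14, 8.80 and 9.37 on the old arrays and 9.01, 9.02, 8.96 and 9.33 on the young arrays. Every HSC array was above every GMP array, and the ages overlapped within each cell type. Means with SD were 10.00 ± 0.25 for old and 10.18 ± 0.15 for young HSC, and 9.10 ± 0.28 for old and 9.08 ± 0.17 for young GMP.

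Tet1 was higher in HSC than in GMP by 1.10 ± 0.13 in young mice (limma adjusted p = 2.54e-06, 2.15-fold) and by 0.90 ± 0.16 in old mice (limma adjusted p = 3.08e-04, 1.87-fold). Both calls held in every alternative setting run. Its age difference was -0.18 ± 0.14 in HSC (limma adjusted p = 0.402), with a 95% interval from -0.48 to 0.12, and 0.03 ± 0.15 in GMP.

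Tet1 had 3 probe sets, and the cell type difference was called by each of them at both ages. Probe set 10369688 gave 0.89 in young mice (limma adjusted p = 2.97e-05) and 1.19 in old mice (1.42e-05), and probe set 10369690 gave 0.96 (2.39e-05) and 0.71 (0.00361). These p-values were adjusted over the 20728 probe sets with a single gene symbol. For age in HSC the probe sets disagreed in sign. Probe set 10369688 gave 0.27 ± 0.14 (limma adjusted p = 0.183), with 8.87, 8.87 and 8.94 in old HSC above 8.73, 8.60, 8.67, 8.80 and 8.30 in young HSC. Probe set 10369690 gave -0.28 ± 0.15 (0.202). No probe set of Tet1 called an age difference.

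**Figure D3:**
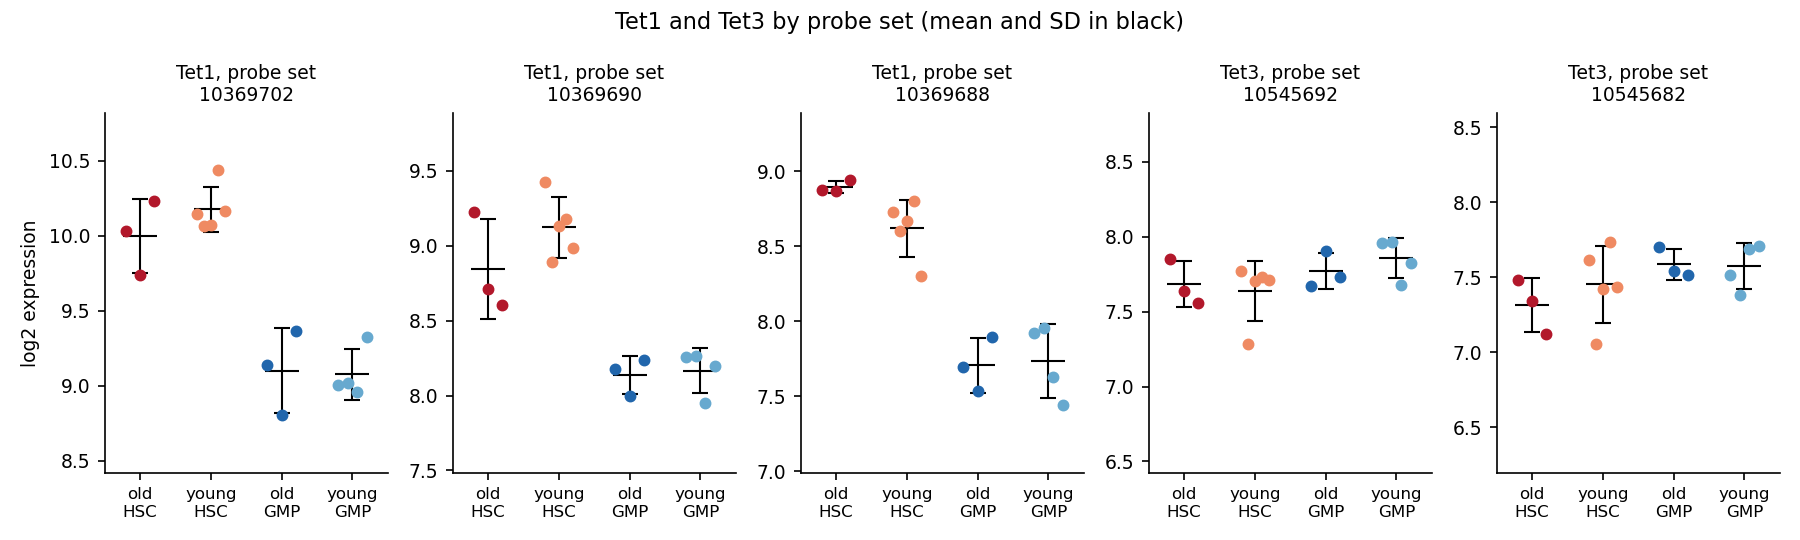
Log2 expression (vertical axis) of the 3 probe sets of Tet1 and the 2 of Tet3 on each array, with group means and SD in black. Panel titles give the probe set numbers, and the first panel of each gene is the probe set used. All 3 Tet1 panels show HSC above GMP, whereas old and young HSC lie in different order between them.

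Tet2, the TET gene most often lost in blood stem cell clones, ran opposite to Tet1 between the cell types. It was 8.32, 8.15 and 8.34 on the old HSC arrays and 8.53, 8.30, 8.17, 8.46 and 7.98 on the young HSC arrays. GMP arrays gave 9.07, 9.12 and 8.91 on the old arrays and 9.15, 9.06, 8.83 and 9.04 on the young arrays. Every HSC array was below every GMP array, and the ages overlapped. The HSC minus GMP difference was -0.73 ± 0.12 in young mice (limma adjusted p = 7.68e-05, 1.66-fold) and -0.77 ± 0.14 in old mice (limma adjusted p = 4.51e-04, 1.70-fold).

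The Tet2 call in old mice held in every alternative run, and that in young mice in all but the one without the 7 young arrays with high Xist, at -0.62 (limma adjusted p = 0.120). Means with SD were 8.27 ± 0.11 for old and 8.29 ± 0.22 for young HSC, and 9.04 ± 0.11 for old and 9.02 ± 0.14 for young GMP. The age difference was -0.02 ± 0.13 in HSC, with a 95% interval from -0.28 to 0.25, and 0.02 ± 0.13 in GMP, with an interval from -0.26 to 0.29.

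Tet3 was 7.85, 7.64 and 7.56 on the old HSC arrays and 7.77, 7.29, 7.70, 7.73 and 7.71 on the young HSC arrays. The GMP values were 7.67, 7.91 and 7.73 on the old arrays and 7.96, 7.96, 7.68 and 7.82 on the young arrays. All 4 groups overlapped. The age difference was 0.04 ± 0.13 in HSC and -0.09 ± 0.13 in GMP, and the HSC minus GMP difference was -0.22 ± 0.12 in young mice (limma adjusted p = 0.194) and -0.09 ± 0.14 in old mice (0.770). Its other probe set was called in 0 comparisons. With array weights the young cell type difference of the probe set used was -0.28 (0.0449).

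Counted over the genes, 5 of 7 were called between young HSC and young GMP, against 24.6% of all genes, and 4 of 7 between old HSC and old GMP, against 22.2%. The young calls were Tet1 and Dnmt3b higher and Dnmt1, Uhrf1 and Tet2 lower in HSC. The old calls were Tet1 higher and Dnmt1, Uhrf1 and Tet2 lower. Arrays did not overlap for those same genes, 5 and 4, against 21.3% and 34.7% of all genes. The median difference in HSC with age was -0.21 for these genes and 0.03 for all genes, and under quantile normalization these medians were 0.06 and 0.02, so the sign for the 7 genes depended on the scaling.

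In GMP, 0 of 7 genes and 0% of all genes were called with age by limma. Of all 19296 genes, 870 had an unadjusted p under 0.05, a share that itself lay below 0.05. Over all genes the number called was 832 with array weights, 232 with the replicate block and 188 without replicate 4 of both young groups. Among the 7 genes it was 0 in every alternative run. None of the 7 was among those 870, and 1 of them, Dnmt1, had no overlap between old and young arrays, against 6.83% of all genes. Of the 7 genes, 0 differed in age response between HSC and GMP by the adjusted test, against 0.0933% of all genes. In the same test 3 of the 7 had an unadjusted p under 0.05, as did 2165 of all 19296 genes.

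Like Uhrf1, cell division markers had their lowest mean in old HSC and higher means in GMP than in HSC. The mean of 20 cell cycle marker genes was 8.52 ± 0.08 in old HSC, 8.99 ± 0.10 in young HSC, 9.68 ± 0.08 in old GMP and 9.72 ± 0.09 in young GMP (SD). Its range was 8.47 to 8.61 in old HSC and 8.90 to 9.13 in young HSC, and 9.63 to 9.77 in old GMP and 9.59 to 9.79 in young GMP. Of the 20 genes, 11 were called lower and 0 higher in old than in young HSC, against 9.22% and 2.25% of all genes. The list median was -0.56. Among them were Gmnn, which encodes the licensing inhibitor geminin, at -1.14 (limma adjusted p = 6.49e-04), Ccne2, a cyclin of S-phase entry, at -0.98 (0.00944), and the helicase subunit genes Mcm7 at -0.90 (4.96e-04) and Mcm5 at -0.85 (0.00193).

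Between the cell types, 17 of the 20 cell cycle genes were lower in young HSC than in young GMP and 18 were lower in old HSC than in old GMP, against 10.9% and 13% of all genes called lower. Rrm2, a subunit of ribonucleotide reductase, differed by -1.84 in young mice (limma adjusted p = 5.10e-10) and by -2.30 in old mice (6.40e-10). Without the 7 young arrays with high Xist, 0 of the 20 were called lower for age in HSC and 11 for cell type in young mice. For age in HSC, 11 were called without replicate 4 of both young groups, 7 under quantile normalization and 3 with the interquartile range as a covariate. The part of cell division in the Uhrf1 and Dnmt1 differences was not tested.

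Genes whose pattern over the 15 arrays lay nearest to each called gene were found by the root mean square difference of centred log2 values. Nearest to Uhrf1 were Mcm5 at 0.197, Fen1, which encodes a flap endonuclease of replication, at 0.197, and Pmf1 at 0.205, where the SD of Uhrf1 itself over the arrays was 0.62. Nearest to Tet1 were Nedd4 at 0.146, Vezf1 at 0.156 and Khdc4 at 0.169, with an SD of 0.54 for Tet1. Dnmt1 had Tbc1d15 at 0.0956, Hcfc1 at 0.0960 and Ikzf1, which encodes the lymphoid factor Ikaros, at 0.104. The nearest for Dnmt3b were Ipo4 at 0.0979, Ptprs at 0.118 and Epb41l2 at 0.120, and for Tet2 they were BC055324 at 0.121, Ankrd28 at 0.121 and Daam1 at 0.122. The SDs of Dnmt1, Dnmt3b and Tet2 were 0.23, 0.21 and 0.40, so distances are not comparable between genes. Arrays of one group are alike across many genes, so nearness is a description of pattern.

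**Figure D4:**
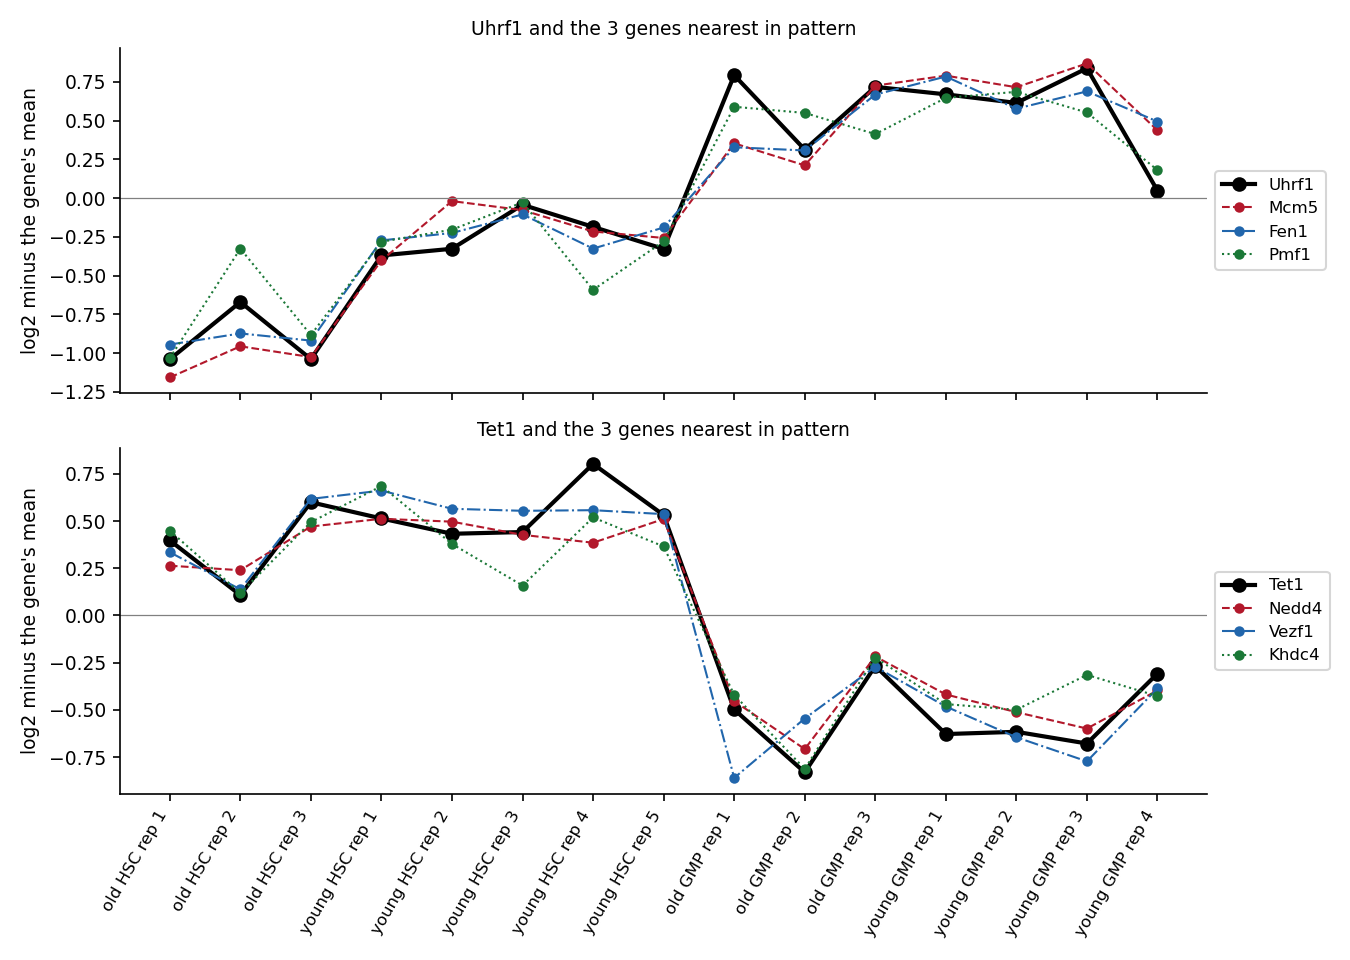
Log2 values minus each gene's mean over the arrays (vertical axis) for Uhrf1, Tet1 and the 3 genes nearest to each, in old HSC, young HSC, old GMP and young GMP replicates from left to right. Uhrf1, Mcm5, Fen1 and Pmf1 have their lowest group mean in old HSC and are higher on every GMP array than on any HSC array, and Tet1 and its neighbours are above their means on HSC arrays and below them on GMP arrays.

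Genes that work with the methyltransferases or with Uhrf1 were followed on a list of 16, of which 15 were measured. In old HSC relative to young HSC, 2 of the 15 fell and 0 rose, against 9.22% of all genes called lower. Hells, a chromatin remodeller needed for methylation of repeats, was 8.92, 8.56 and 9.26 in old HSC and 9.33, 9.61, 9.27, 9.97 and 9.72 in young HSC, a fall of 0.66 ± 0.18 (limma adjusted p = 0.0253). The groups did not overlap, but the lowest young array lay only just above the highest old one. Trim28, a corepressor that brings methylation to imprinted regions and retroelements, fell by 0.47 ± 0.13 (0.0243). Both calls were lost without old HSC replicate 1, at -0.67 for Hells and -0.47 for Trim28, without old HSC replicate 2, at -0.48 and -0.49, and without young HSC replicate 2, at -0.66 and -0.47. They were lost too in the fit of old and young HSC alone, where both differences stayed as given, and without the 7 young arrays with high Xist, at -0.42 and -0.56. Under quantile normalization the lost differences were -0.40 for Hells and -0.18 for Trim28, and with the interquartile range as a covariate they were -0.54 and -0.25. Without young HSC replicate 3 the count was 1, and without replicate 5 it was also 1.

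Between the cell types, Hells was lower in HSC by 0.95 ± 0.16 in young mice (limma adjusted p = 1.79e-04) and by 1.67 ± 0.20 in old mice (3.81e-06). Cdca7, the partner that recruits the Hells protein, differed by -0.53 ± 0.13 in young mice (0.00476) and by -1.09 ± 0.16 in old mice (3.97e-05). Zfp57, a zinc finger gene whose product holds methylation at imprinted regions, went the other way, at 0.99 ± 0.12 in young mice (1.90e-06) and 0.98 ± 0.14 in old mice (3.46e-05). In all, 1 was higher and 4 lower in young HSC, against 13.6% and 10.9% of all genes, and 1 higher and 3 lower in old HSC, against 9.25% and 13%. The other lower genes were Smchd1 at both ages, a repressor on the inactive X chromosome, and Daxx in young mice, a histone H3.3 chaperone.

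The list of methyl-CpG readers and related genes, such as Mbd6, had 8 measured genes of 10. Binding to methylated CpG was not measured for any of them. With age, 0 were called in HSC or in GMP, against 11.5% and 0% of all genes. In young mice 4 were higher in HSC than in GMP and 0 were lower, with a list median of 0.41, against 13.6% of all genes called higher and a median of -0.05 for all genes. They were Zbtb38 at 0.83 ± 0.11 (limma adjusted p = 1.40e-05), Uhrf2, the relative of Uhrf1, at 0.60 ± 0.13 (0.00150), Mbd6 at 0.48 ± 0.12 (0.00681) and Zbtb4 at 0.38 ± 0.12 (0.0226). In old mice 2 were higher, Zbtb38 at 0.62 and Zbtb4 at 0.44, against 9.25% of all genes. Without the 7 young arrays with high Xist the young count was 1.

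Genes of TET cofactors and recruiters were measured for 12 of 13. Idh2, which makes alpha-ketoglutarate in mitochondria, was 9.75, 9.76 and 9.67 in old HSC and 10.34, 10.44, 10.48, 9.92 and 10.44 in young HSC, a fall of 0.60 ± 0.12 (limma adjusted p = 0.00798). Every old array was below every young array, of which replicate 4 was the lowest. Fh1 at -0.60 (0.0416), Sdha at -0.45 (0.0485) and Ogdh at -0.40 (0.0447), all enzymes of the citric acid cycle that handle alpha-ketoglutarate or the downstream acids fumarate and succinate, were the other 3 of the 4 that fell among the 12, against 9.22% of all genes. With any one of old HSC replicates 1 and 2 and young HSC replicates 1, 2, 3 and 5 left out, the count for this list was 1. Idh2 passed the test without either of old HSC replicates 1 and 2, with limma adjusted p-values of 0.0396 and 0.0344. It did not pass under quantile normalization, at -0.32 (0.0921), with the interquartile range as a covariate, at -0.43 (0.224), or without the 7 young arrays with high Xist, at -0.61 (0.0850).

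Between the cell types the cofactor genes split. Idh1, the cytosolic counterpart of Idh2, was lower in HSC by 1.39 ± 0.17 in young mice (limma adjusted p = 4.54e-06) and by 2.00 ± 0.21 in old mice (8.37e-07). Idh2 was lower by 0.85 ± 0.11 in young mice (1.05e-05) and by 1.27 ± 0.14 in old mice (1.14e-06). Slc23a2, a vitamin C transporter, was higher in HSC by 1.15 ± 0.10 in young mice (4.95e-08) and by 1.10 ± 0.12 in old mice (1.78e-06). Vitamin C is a cofactor that raises TET activity. Ogt, which adds sugar to proteins and binds TET proteins, was higher by 0.84 ± 0.12 in young HSC (2.84e-05). The counts were 3 higher and 3 lower in young mice, against 13.6% and 10.9% of all genes, and 3 higher and 4 lower in old mice, against 9.25% and 13%.

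Base excision genes, which remove oxidised methylcytosine, were measured for 17 of 19. In old HSC 4 fell, against 9.22% of all genes: the DNA ligase gene Lig3 by 0.63 (limma adjusted p = 0.0149), the glycosylase gene Mbd4 by 0.52 (0.0163), the endonuclease gene Apex1 by 0.44 (0.0441) and Parp1, a sensor of strand breaks, by 0.43 (0.0201). In young mice 4 were lower in HSC than in GMP, against 10.9% of all genes, and 0 higher, led by the stress gene Gadd45a at -0.74 (8.74e-04) and the glycosylase gene Neil3 at -0.59 (0.0236). In old mice 5 were lower and 1 higher, against 13% and 9.25%, led by Neil3 at -1.22 (4.38e-04) and Apex1 at -0.87 (2.91e-04).

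The methyl donor cycle supplies S-adenosylmethionine, and 12 of its 16 listed genes were measured. In old HSC 4 fell, against 9.22% of all genes: the folate enzyme genes Mthfd1 by 0.76 (limma adjusted p = 0.00859) and Shmt2 by 0.73 (0.0259), Mtrr, which reactivates methionine synthase, by 0.59 (0.0256), and Mat2b, a subunit of the S-adenosylmethionine synthase, by 0.53 (0.0115). The base excision count for age in HSC was 0 without old HSC replicate 1 and 1 without replicate 2, and the methyl donor count was 0 without either. Without young HSC replicate 2 or 3 both counts were 2, and without replicate 5 the methyl donor count was 2. Between the cell types, 3 methyl donor genes were lower and 1 was higher in young HSC, against 10.9% and 13.6% of all genes, and 7 were lower and 0 higher in old HSC, against 13% called lower. Mthfd2, a mitochondrial folate enzyme gene, differed by -1.08 in young mice (3.26e-05) and by -1.14 in old mice (2.00e-04).

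Germline genes are kept silent in body cells by DNA methylation, and 12 of 13 listed ones were measured. Their mean per array was 4.85 to 4.94 in old HSC, 4.74 to 4.96 in young HSC, 4.93 to 4.97 in old GMP and 4.86 to 5.15 in young GMP. Between old and young cells 0 were called in HSC or in GMP, against 11.5% and 0% of all genes. Between the cell types, Tuba3a, a testis tubulin gene, was lower in HSC in young mice, at -0.74 (limma adjusted p = 0.00178), the 1 called of 12 against 10.9% of all genes. In old mice 3 were lower, against 13% of all genes: Tuba3a at -0.60 (0.0332), Tex101 at -0.41 (0.0311) and the meiotic gene Sycp3 at -0.45 (0.0150). Sycp3 averaged 4.17 in old HSC and 4.61 in old GMP, as dim as Eif2s3y on its lowest arrays, and the deposited table has no detection call, so it is not known whether the signal was above background.

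**Figure D5:**
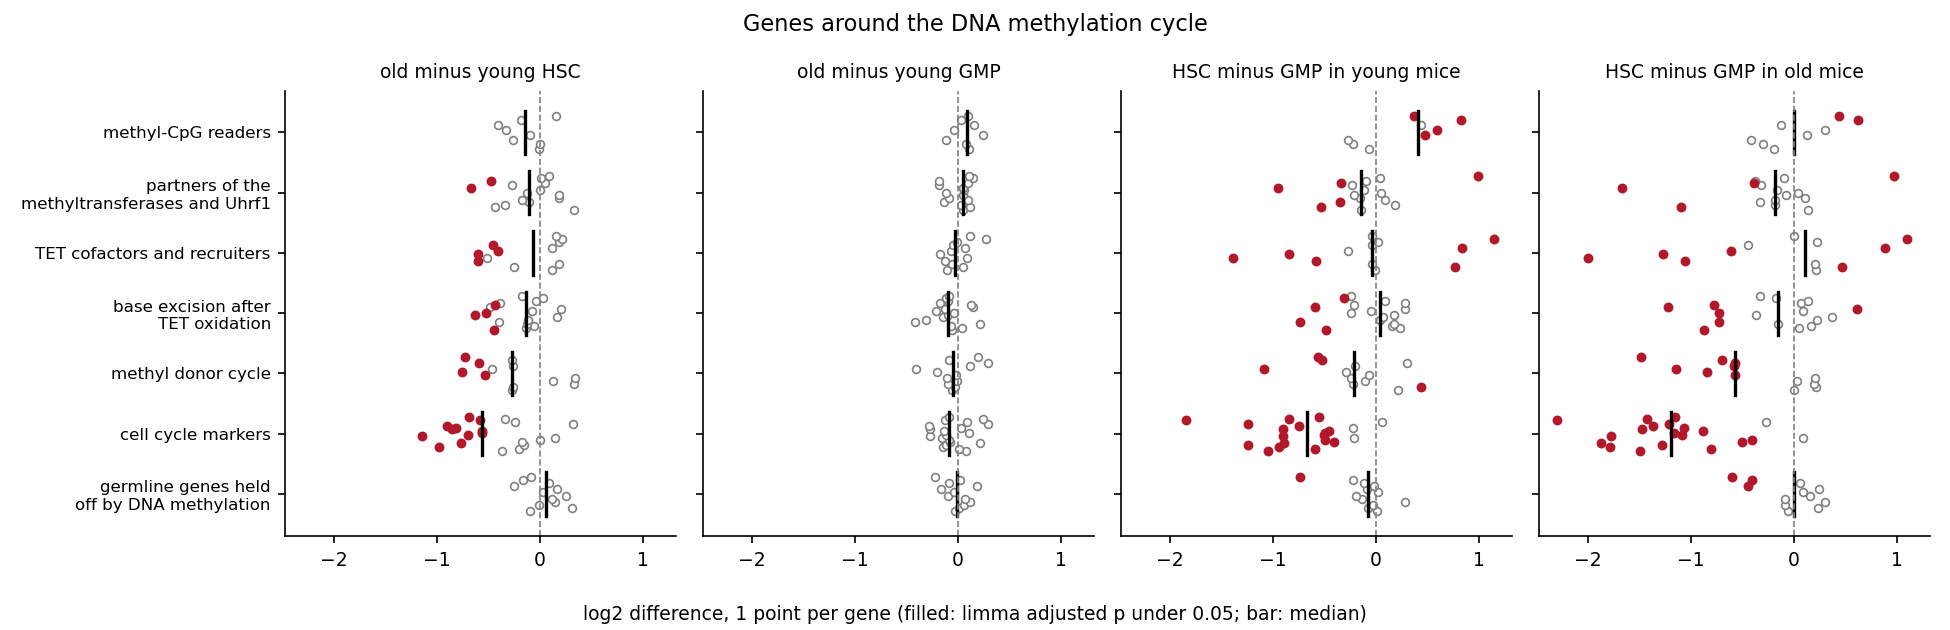
Log2 differences (horizontal axis) for genes around the DNA methylation cycle, 1 point per gene, filled where the limma adjusted p was under 0.05, with the list median as a bar. Old minus young HSC shows 11 of 20 cell cycle markers called, all lower, and 0 called in the germline and methyl-CpG reader lists. Of all genes, 11.5% were called in that comparison. Old minus young GMP shows 0 called in every list, against 0% of all genes.

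Over all 7 lists, 0 genes were called between old and young GMP, against 0% of all genes. In HSC no listed gene was called higher with age, against 2.25% of all genes, though 1 to 3 of a list were called higher under some alternatives. Without the 7 young arrays with high Xist, 0 genes of the partner, cofactor, base excision and donor lists were called for age in HSC, in a fit with 1 young HSC array. In that fit Idh2 was -0.61 and Trim28 -0.56, at least as large as with all arrays. Hells, at -0.42, and Uhrf1, at -0.55, were smaller there than with all arrays. A call lost in that fit therefore does not show whether a difference was gone. Markers of other cells that could stray into the sort gave means per array, over 7 measured T and NK cell genes, of 6.76 to 6.90 in old HSC and 6.51 to 6.68 in young HSC, and over 7 mast cell and basophil genes of 6.00 to 6.39 in old HSC and 5.81 to 6.19 in young HSC. The 7 macrophage genes gave 6.28 to 6.53 in old HSC and 5.95 to 6.86 in young HSC, where 6.86 was replicate 4, the array with the highest Cd48 among young HSC, and the next young array was at 6.23. The 8 mature neutrophil genes gave 6.23 to 6.43 in old and 6.20 to 6.63 in young HSC, and the 7 B cell genes 6.39 to 6.62 in old and 6.49 to 6.66 in young HSC. The 5 erythroid genes gave 7.13 to 7.32 in old and 6.90 to 7.24 in young HSC. The 6 megakaryocyte genes were at 8.37 on each old HSC array and at 7.83 to 8.35 on the young HSC arrays, and the 7 endothelial genes at 7.23 to 7.27 in old and 7.19 to 7.37 in young HSC. With age in HSC, 1 of the 7 T and NK cell genes was called higher and 1 lower. Of the others, 1 of 5 erythroid and 1 of 6 megakaryocyte genes were called higher, and 1 of 7 endothelial genes lower. Over all genes 2.25% were called higher and 9.22% lower. The part of such cells in the age differences was not tested.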

How the data were processed

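The table held 1 log2 expression value for each of 23309 probe sets on 15 arrays, as deposited, with 0 missing. RMA, affy and limma are named in the submitters' processing notes, without versions, and the log2 scale was read from the deposited values. A genome build and a filter on probe sets are not given in the sources used here. Of the probe sets, 20728 had 1 gene symbol in the platform annotation, 1174 had several and 1407 were unnamed, and 20685 of the 20728 matched the gene table by Entrez ID. The probe set with the highest mean stood for a gene, which affected 804 genes with more than 1.

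All 15 arrays entered 1 model in limma 3.58.1 (R 4.3.3), with a mean for each of the 4 groups and default empirical Bayes settings. Contrasts were old minus young in HSC and in GMP, HSC minus GMP in young and in old mice, and the difference between the age differences. A gene was called at a Benjamini-Hochberg adjusted p under 0.05 over 19296 genes. The genes named were all 7 members, up to 4 called genes per list and comparison by size, and the 3 nearest genes of each called member. The members, lists and comparisons were chosen with earlier results of these data known, and the promoters, the motifs and the genes given array by array after seeing values.

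Arrays with the same replicate number were compared by the correlation of their deviations from the group means. Young HSC and young GMP replicates 1 to 4 gave 0.29, 0.23, 0.16 and 0.52. Old HSC and old GMP replicates 1 to 3 gave 0.05, 0.23 and 0.42. Over all 19 pairs r ran from -0.27 to 0.52. The labels do not say what a replicate number stands for, and the main tests used no pairing. In an added alternative the numbers were taken to pair the young arrays, and a block of the old arrays alone was not run. The closest pair of arrays correlated at 0.995, and none was counted as a repeat. Alternatives were quantile normalization, each array's interquartile range as a covariate, array weights, a replicate block, a filter on dim genes, an intensity trend, the mean of all probe sets, other probe sets, fits of the compared groups alone and fits without single arrays or the arrays that stood apart. The block of young arrays was added after seeing the data.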

Additional observations from a re-analysis of the deposited data

Results flagged for a closer look

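Single arrays were flagged in 4 of the 14 groups of 4 or 5 arrays examined over the 7 genes, where chance gives about 1 in 20. The flag rested on the gap to the next array as a share of the group's range, so a small gap in a tight group can be flagged. The 14 checks share arrays and are not independent. Tet1 was 10.44 on young HSC replicate 4, above the next array at 10.17, and 9.33 on young GMP replicate 4, above the next at 9.02. Dnmt1 was 11.02 on young GMP replicate 4, below the next at 11.07. Tet3 was 7.29 on young HSC replicate 2, below the next at 7.70. These 4 values lay on 3 arrays, of which 2 were replicate 4 of a young group, the arrays with the lowest Eif2s3y.

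The age difference in HSC differed from that in GMP for 2 of the genes given as context. Mcm6, a helicase subunit gene, gave -0.85 (limma adjusted p = 0.0461), with an age difference of -0.82 ± 0.11 in HSC and 0.04 ± 0.11 in GMP. It was called in 9 of 24 alternatives, at -0.97 to -0.60 over all of them. Flt3, which encodes the sort marker Flk2, gave -1.43 (limma adjusted p = 0.00280), with -0.69 ± 0.12 in HSC and 0.73 ± 0.13 in GMP, and cells with Flk2 protein were gated out of the HSC sort. It was called in 23 of 24 alternatives, at -1.59 to -1.31 over all of them, and lost without the 7 young arrays with high Xist.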

How the results depend on the processing

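Of 35 gene and comparison pairs 10 were called, and 5 of these were called with the same direction in every alternative run: Uhrf1 and Tet1 between the cell types at both ages, and Tet2 between them in old mice. No called difference changed sign. The number of genes called for age in HSC, 1 of 7, was 0 under quantile normalization, 0 with the interquartile range as a covariate, 0 without the young arrays with Xist above every old array and 3 with array weights, and ran from 0 to 1 as single arrays were left out, with 0 only without old HSC replicate 1. For cell type in young mice the count of 5 was 2 without the high-Xist arrays and 4 with the replicate block, and ran from 4 to 5 as single arrays were left out. Under quantile normalization the cell type counts were 4 of 7 in young mice and 3 of 7 in old mice, against 5 and 4 in the main fit. With array weights Tet3 was also called between the cell types in young mice. For the difference between age differences the count of 0 was 2 with array weights. Over all 19296 genes, array weights gave 8966 calls for age in HSC, against 2213 in the main fit. For the difference between age differences they gave 2407 calls over all genes, against 18. For Uhrf1 in HSC the replicate block gave -0.76 (limma adjusted p = 0.00433) and, beside the Dnmt1 value in young mice, the block changed no other call of the 7 genes. The cause of these changes was not tested.

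Among the 25 uncalled differences 17 changed sign in some alternative, and their log2 values there were as follows. Quantile normalization gave 0.0402 for Dnmt1, 0.0597 for Dnmt3a, 0.12 for Tet1 and 0.17 for Tet2 with age in HSC, and 0.034 for Dnmt3a with age in GMP. It gave -0.0362 for Dnmt3a in young HSC minus GMP and 0.10 for Dnmt3b in old HSC minus GMP, and for the difference between age differences 0.0257 for Dnmt3a, 0.0368 for Tet1 and 0.0917 for Tet2. The interquartile range as a covariate gave 0.00557 for Tet2 with age in HSC and 0.00154 for Dnmt3b in old HSC minus GMP. Array weights gave 0.0911 for Tet2 with age in HSC, -0.0647 for Uhrf1 with age in GMP, 0.0457 for Tet3 in old HSC minus GMP and 0.0546 for Tet2 in the difference between age differences. Leaving out replicate 4 of both young groups gave 0.0257 for Tet2 with age in HSC, -0.10 for Uhrf1 with age in GMP, -0.027 for Dnmt3a in young HSC minus GMP and 0.000499 for Tet2 in the difference between age differences. The mean of all probe sets gave -0.0473 for Tet3 with age in HSC, -0.0101 for Tet1 with age in GMP and -0.0107 for Tet3 in the difference between age differences. Without the high-Xist arrays age gave -0.0844 for Tet3 in HSC, and -0.0614 for Uhrf1 and -0.11 for Tet2 in GMP. The replicate block gave -0.00909 for Uhrf1 with age in GMP. Tet1 probe set 10369688 gave 0.27 with age in HSC, -0.0279 with age in GMP and 0.30 for the difference between them, and Tet1 probe set 10369690 gave -0.0278 with age in GMP. The other Tet3 probe set gave -0.14 with age in HSC, 0.0131 with age in GMP and -0.15 for the difference between them. As single arrays were left out, age in HSC ran from -0.0947 to 0.043 for Tet2 and from -0.0447 to 0.11 for Tet3. Age in GMP ran from -0.0803 to 0.0313 for Dnmt3a, from -0.10 to 0.21 for Uhrf1, from -0.11 to 0.17 for Tet1 and from -0.0472 to 0.0792 for Tet2. Young HSC minus GMP ran from -0.0427 to 0.0569 for Dnmt3a, old HSC minus GMP from -0.11 to 0.11 for Dnmt3b, and the difference between age differences from -0.11 to 0.029 for Tet2.

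All genes called for age in HSC numbered 2213, of which 80.4% were lower, and 1305 under quantile normalization, of which 57.2% were lower. They numbered 22 without the high-Xist arrays, 106 with the interquartile range as a covariate, 6183 without replicate 4 of both young groups and 8966 with array weights, and ran from 345 without old HSC replicate 2 to 5312. For the difference between age differences 18 genes were called, 72.2% of them lower, and 5 under quantile normalization, 40% of them lower. That count was 11 with the interquartile range as a covariate, 41 with the replicate block, 145 without replicate 4 of both young groups, 2407 with array weights and 0 without the high-Xist arrays. It ran from 1, without old HSC replicate 1, young HSC replicate 3, old GMP replicate 2 or young GMP replicate 3, to 192 without young HSC replicate 4. For age in GMP the count of 0 was 832 with array weights, 232 with the replicate block, 188 without replicate 4 of both young groups, 3 without the high-Xist arrays and 12 without young GMP replicate 4. With 3 arrays of old cells per type, precision is limited by the number of arrays.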

Other observations

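The genes of the sort markers were read as a check of the labels. Cd34 was lower in old HSC by 1.03 ± 0.14 (limma adjusted p = 9.46e-04), at 9.58, 9.12 and 9.35 in old HSC against 10.27, 10.55, 10.51, 10.16 and 10.40 in young HSC. CD34 was not part of the HSC gate. Among the 10 genes of the HSC marker list, 9 were measured and 0 were called with age in HSC, against 11.5% of all genes. Their mean per array was 9.11 to 9.54 in old HSC and 9.06 to 9.56 in young HSC.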
